A study of Mus musculus with 7 samples.

Results

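The mouse major histocompatibility complex was taken as the interval chr17:33900000-36600000 of build mm10, which runs from before the H2-K genes through the H2-T genes and into the H2-M genes, further members of which lie beyond its end. Every peak whose center lies in this interval was kept, with no use of its tag count, which gave 6024 of the 2603994 peaks listed over the 7 libraries. The measurement was ChIP-exo 5.0 for CTCF, in which an exonuclease trims immunoprecipitated DNA up to the crosslinked protein, so that a tag marks the base at which digestion stopped on 1 strand. There was 1 library each of brain, lung, kidney and liver of wild-type mice aged 16 weeks, and 1 library each of 2,700,000, 270,000 and 27,000 liver cells. No allele or treatment distinguished the groups, the sources used here name no strain, and the cell numbers of the titration were estimated from tissue weight. The study's methods give crosslinking with 1% formaldehyde and the labels 0.3%, and the labels name a CTCF antibody for every library while their extraction protocol names IgG. Since each condition had a single library, differences between libraries were not checked by replicates and no p-values are reported. The labeled tissues could not be checked against expression markers, since only CTCF peaks were measured. These are whole organs, so fewer cells with a bound site and less binding per cell cannot be told apart.

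The major histocompatibility complex holds the class I genes, whose products present peptides from inside the cell to cytotoxic T cells, and the class II genes, whose products present peptides taken up by specialized immune cells to helper T cells. The class III part, with complement and tumor necrosis factor genes, lies next to class II. In the mouse, class I genes are found at both ends of the complex, as the K genes on 1 side and the D, Q, T and M genes on the other, and many are close copies of each other. CTCF binds DNA through zinc fingers, is found at insulators and at borders of chromatin domains, and helps to hold chromatin loops in place.

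A site was defined as a forward peak and a reverse peak whose center lies 10 to 80 bp downstream of it, together holding at least 20 tags in the library of 2,700,000 cells. Such pairs numbered 24078 in the genome, of which 111 lay in the histocompatibility region. As these sites came from liver cells, any site bound in another organ alone is missing from the list. Among the 111 sites, 11 of the 110 gaps between neighbors were under 200 bp (10% against 2.89% for all sites). The windows of those neighbors share tags, so the same peak can count at both. The intervals given below treat sites as independent and do not allow for this. A site was called in another library when the 100 bp on each side of its center held a listed peak center, and tags at a site are those of all peaks in that window. A 0 means that the file lists no peak there, and the smallest listed peaks hold 2 tags. Intervals are 95% intervals and cover counting error only.

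Sequences could be read only where the RefSeq promoter table of GRCm38.p6 (the same coordinates as mm10) covers the place, which is 250 bases before to 50 bases after a gene start. Of the 184 promoter windows of 143 genes in the region, 2 held a site (1.09%), against 1.93% of all 32851 windows. Both windows shared the same site, between the divergent starts of Atp6v1g2, a subunit of the proton pump of vesicles, and Nfkbil1, a relative of the inhibitors of NF-kappaB. The site lies within the annotated Atp6v1g2 interval, 57.5 bp from the end of the Nfkbil1 interval, and the annotation used gives no exons. The window of Dhx16, an RNA helicase of splicing, held a pair of 19 tags, just under the minimum for a site. These stretches are shown because they are the region's best covered promoters, and the capitals mark the bases from the center of the forward peak to that of the reverse peak.
Atp6v1g2, chr17:35236474-35236595, plus strand: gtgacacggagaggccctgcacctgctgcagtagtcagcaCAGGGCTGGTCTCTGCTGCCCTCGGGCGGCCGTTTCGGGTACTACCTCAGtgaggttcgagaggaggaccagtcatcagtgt
Dhx16, chr17:35879595-35879722, plus strand: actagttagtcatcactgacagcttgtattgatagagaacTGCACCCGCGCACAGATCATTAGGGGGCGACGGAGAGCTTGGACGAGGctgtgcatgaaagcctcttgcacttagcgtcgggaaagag

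In the 2,700,000 cell library the forward and reverse peaks of the first stretch held 25 and 30 tags and lay 49 bp apart. The promoter window of Atp6v1g2 held 29 tags in brain, 45 in lung, 4 in the kidney and 4 in the liver, and 174 in the library of 2,700,000 cells. The window of Dhx16 held 14, 9, 12 and 0 tags in the same organs and 79 in the library of 2,700,000 cells. In the library of 2,700,000 cells, 48 of the 143 genes of the region had any tags in a promoter window. The numbers were 17 in brain, 10 in lung, 20 in the kidney and 5 in the liver. The share over all genes of the genome was not counted, so these numbers only describe the region. A core of the CTCF motif 12 letters long, with 7 of them fixed, was searched on both strands, and occurred in 17 of the region's windows (9.24%) and in 8.61% of all windows. It occurred in 351 of the 633 windows of the genome that held a site (55.5%) and in neither of the region's windows with a site. Those windows share the same site, and only full matches to the core were counted, so a near match there would be missed.

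A pair of long noncoding RNAs, Gm31082 beside H2-K1 and Gm32252 beside H2-Q6, had the same match to this core upstream of their starts. These are shown because their surroundings are near-identical copies, with 89 of 92 bases the same (96.7%). Each gene also held a site at the same distance from the match, which in Gm32252 was not its stronger site. The capitals mark the match, and each sequence is written on the strand of its gene.
Gm31082, chr17:34004156-34004247, minus strand: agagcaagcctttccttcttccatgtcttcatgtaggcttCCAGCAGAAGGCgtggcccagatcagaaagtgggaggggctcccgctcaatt
Gm32252, chr17:35420142-35420233, plus strand: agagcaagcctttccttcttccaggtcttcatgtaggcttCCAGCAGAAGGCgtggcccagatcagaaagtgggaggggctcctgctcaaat

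The match itself was not where the tags lay. The promoter window of Gm31082 held 0 tags in all 7 libraries, and that of Gm32252 held 5 tags in the library of 2,700,000 cells, 2 in that of 270,000 and 0 elsewhere. A site with 142 tags in its peak pair lay 567.5 bp downstream of the match in Gm31082, and 1 with 27 tags lay 567.5 bp downstream in Gm32252, beside another of 121 tags at 461.5 bp. All 3 lie inside the RNA genes. The pair of 27 tags in Gm32252 held 2 tags on its forward peak and 25 on its reverse peak. Alignments that were not unique had been removed, so reads that matched both copies equally are missing from both.

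The libraries held 527038 to 1635582 tags in the organs, and 6592538, 640635 and 35594 in the titration, taken from 2,700,000 down to 27,000 cells. The region took 0.194% of the tags in brain (0.186 to 0.203), 0.302% in lung (0.290 to 0.316), 0.133% in the kidney (0.128 to 0.139) and 0.125% in the liver (0.116 to 0.135), by exact binomial intervals. The titration shares, in the same order, were 0.371%, 0.200% and 0.0983%. Tags per Mb in the region exceeded those in the rest of the genome, dense bins left out, 2.14-fold in brain, 3.17-fold in lung, 1.49-fold in the kidney and 1.64-fold in the liver. In the titration the excess was 4.03-, 2.60- and 1.54-fold. With these bins left out, every library thus held more tags per Mb in the region than elsewhere, and against the rest of chromosome 17 the excess ranged from 1.40 in kidney to 3.48 in the library of 2,700,000 cells. The excess was lost in liver and in the library of 27,000 cells when peaks of at least 5 tags were required, since neither had any in the region, and in the latter also with the dense bins kept, at 0.969-fold. Peaks whose tags all stop at 1 position made up 70.0% of the region's peaks in brain, 76.1% in lung, 87.4% in the kidney and 63.7% in the liver, against 84.8%, 85.6%, 92.9% and 79.3% elsewhere. Kidney, with the smallest excess, had the highest share of such peaks, and lung, with the largest excess of the organs, the next highest. Without them the excess was 4.27-, 5.53-, 2.55- and 2.62-fold in brain, lung, kidney and liver.

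The density of sites and that of genes were both high. The region held 41.1 sites per Mb against 9.01 in the rest of the genome and 10.5 in the rest of chromosome 17. Genes numbered 86.3 per Mb against 18.7 and 22.0, so that there were 47.6 sites per 100 genes in the region against 48.2 in the rest of the genome and 47.9 in the rest of the chromosome. Among 1000 windows of 2.7 Mb elsewhere, 1 held more sites, with 115, and the median window held 19. The median gap between neighboring sites was 15385 bp in the region and 38869.5 bp in the genome, and 16 of 110 gaps were under 1 kb (14.5% against 5.24%). Peak pairs of the region's sites held 20 to 248 tags in the library of 2,700,000 cells, with a median of 56 against 43.5 for all sites. Sites lay inside a gene in 54 of 111 cases (48.6% against 53.9%) and within 1 kb of a gene end in 21 (18.9% against 13.4%).

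The region was divided into 7 blocks in order along the chromosome. The D and Q block, with H2-D1 and the Q genes, held the most sites per 100 kb, 6.59, with 16 sites. The block from Pou5f1, a regulator of pluripotency, to Gnl1 held 5.83 per 100 kb (29 sites) and the K block 5.76 (10 sites). The class II block held 4.89 per 100 kb (24 sites) and the class III block 3.01 (21 sites), although class III had the most genes, 82. The T block held 2.85 per 100 kb (8 sites). The M block, with the H2-M genes, was the sparsest at 0.95 per 100 kb (3 sites), and took 2.84% of the region's tags in the library of 2,700,000 cells, 5.28% in brain, 2.20% in lung, 6.89% in the kidney and 6.53% in the liver. Its longest peak-free stretch in the library of 2,700,000 cells was also the longest of the region, 17098 bp that overlap the pseudogene H2-M10.5-ps1.

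**Figure D1:**
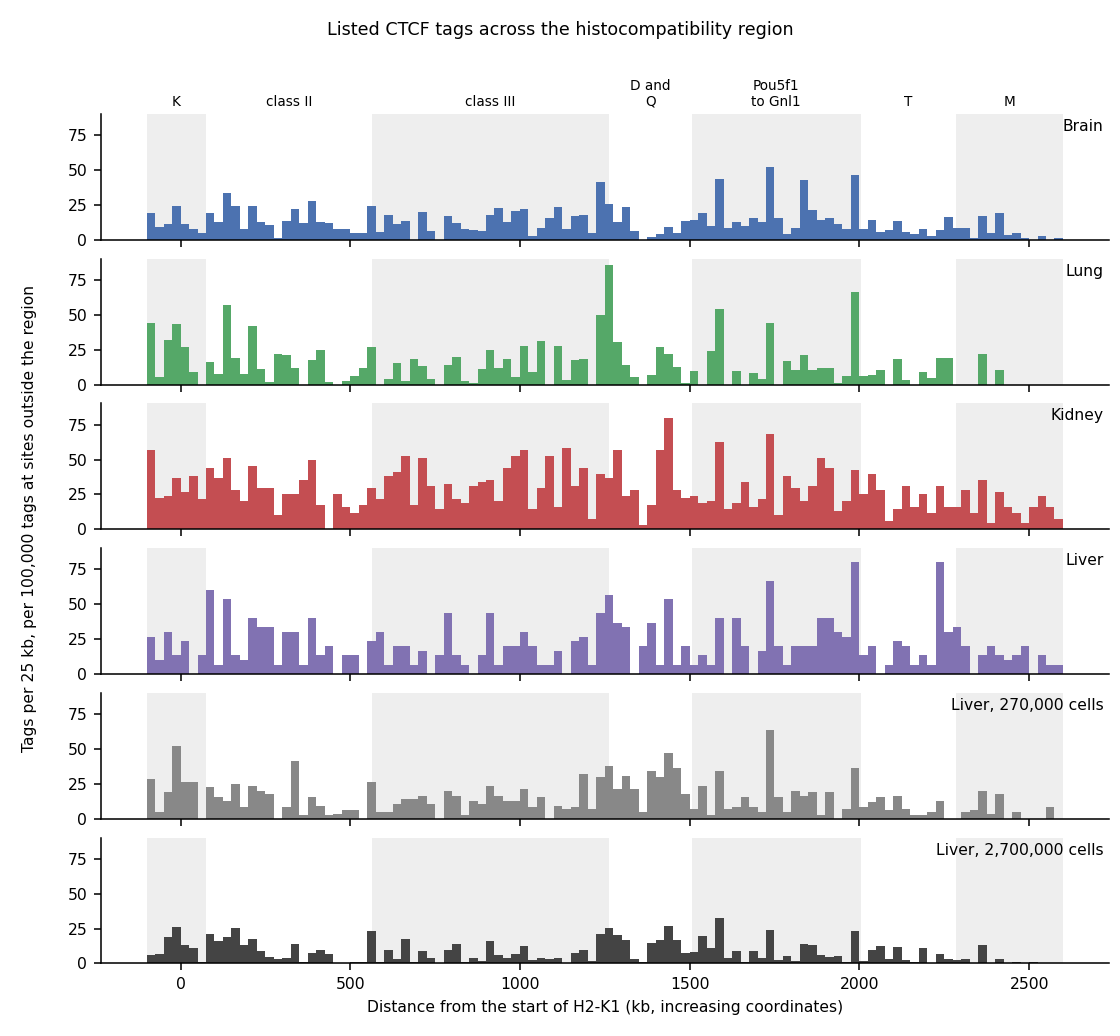
Listed tags in bins of 25 kb (bars) in 6 libraries, per 100,000 tags at sites outside the region, against the distance in kb from the start of H2-K1, with the blocks of the region shaded in turn. The M block at the right is low in lung and in the library of 2,700,000 cells, which placed 2.20% and 2.84% of the region's tags there.

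Several class I genes shared a site at a like distance upstream of the start. Of the 16 class I genes with an H2 symbol whose strand is known, 8 had a site 2500 to 5000 bp upstream of the start. The share was 4.47% of all 27026 genes, and 16 of the 127 other genes of the region had such a site (12.6%). Class I genes under other names, if any, were counted among these 127. This range was chosen after the peaks were seen. The 8 genes were H2-K1 and H2-D1, the classical class I genes, H2-Q6, H2-Q7 and H2-Q10 of the Q genes, and H2-T23, H2-T-ps and H2-T3 of the T genes. In the library of 2,700,000 cells the bodies of these genes held 7 tags in H2-K1, 2 in H2-D1, 33 in H2-Q6, 33 in H2-Q7, 8 in H2-Q10, 75 in H2-T23, 60 in H2-T-ps and 5 in H2-T3. The gene bodies were thus nearly free of tags in H2-K1, H2-D1, H2-Q10 and H2-T3, and less so in the others. The sites are not independent of each other, since these genes are copies of one another. With a range of 1000 to 10000 bp the number was again 8, against 13.9% of all genes.

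H2-K1 had its site 3287 bp upstream, in Gm31082 (chr17:34003534-34003734). That site held 0 tags in brain, 17 in lung, 0 in the kidney and 5 in the liver, with 269, 12 and 0 in the libraries of 2,700,000, 270,000 and 27,000 cells. Brain, kidney and the smallest liver library thus listed no peak there. H2-D1 had its site 4763.5 bp upstream, at chr17:35258230-35258430, between it and the RNA helicase gene Ddx39b. It held 7 tags in brain, 20 in lung, 18 in the kidney, 5 in liver, 9 in the library of 270,000 cells and 165 in that of 2,700,000. This site was called in all 4 organs.

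The Q genes lie in a row of copies, and 3 had sites at nearly the same distance, 4201 bp for H2-Q6, 4110.5 bp for H2-Q7 and 4213 bp for H2-Q10. The site of H2-Q7, a nonclassical class I gene, at chr17:35434944-35435144, held 2 tags in brain, 13 in lung, 6 in the kidney, 8 in liver and 438 in the library of 2,700,000 cells. The site of H2-Q10, whose secreted product is made mainly by the liver, at chr17:35465776-35465976, held 5, 15, 4 and 2 tags in the organs and 336 in the library of 2,700,000 cells. It was also 1 of 3 sites of the region called in the library of 27,000 cells, with 3 tags. The site upstream of H2-Q6, at chr17:35420549-35420749, held 0, 32, 7 and 2 tags in the organs. Lung had the highest raw count at all 3 sites, but its library held more tags at sites than that of liver. Per 100,000 tags at sites outside the region, the H2-Q7 site was higher in liver, 26.8 against a mean of 6.36 in the other organs. That value rests on 8 liver tags. By the same scaling the H2-Q6 site was higher in lung, 22.5 against 5.55. Scaled by all listed tags, 1 site of the region was called higher in liver and 40 in lung, so such calls depend on the scaling. H2-Q2 and H2-Q4 had no site in this range, with 1 and 4 peaks of the library of 2,700,000 cells in the 10 kb upstream, against 29 to 34 for H2-Q6, H2-Q7 and H2-Q10.

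H2-T23, which encodes the mouse Qa-1 molecule read by natural killer cell receptors, had a site of 27 tags 2827.5 bp upstream, and H2-T-ps had 1 of 67 tags 2796 bp upstream. H2-T3, which encodes the thymus leukemia antigen, had a site 3602.5 bp upstream at chr17:36193653-36193853, with 4 tags in brain, 6 in lung, 3 in the kidney and 4 in the liver. This last site was low but present in all 4 organs. H2-T22 had none, with 2 peaks in the 10 kb upstream. The 5 H2-M genes of known strand also had none, with 1 to 5 peaks each. These genes include many near-identical copies, so tags at any of them are uncertain. Of the class I genes without a known strand, H2-K2 had its nearest site at 3563.5 bp, with 154 tags in its pair, and H2-Q5 at 3991 bp, with 21 tags. The nearest site lay closer to H2-T10 (1399 bp) and H2-Q1 (1743.5 bp), and farther from H2-T24 (6278 bp), H2-Bl (19073.5 bp) and H2-Q3 (29083.5 bp), on either side of the gene.

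**Figure D2:**
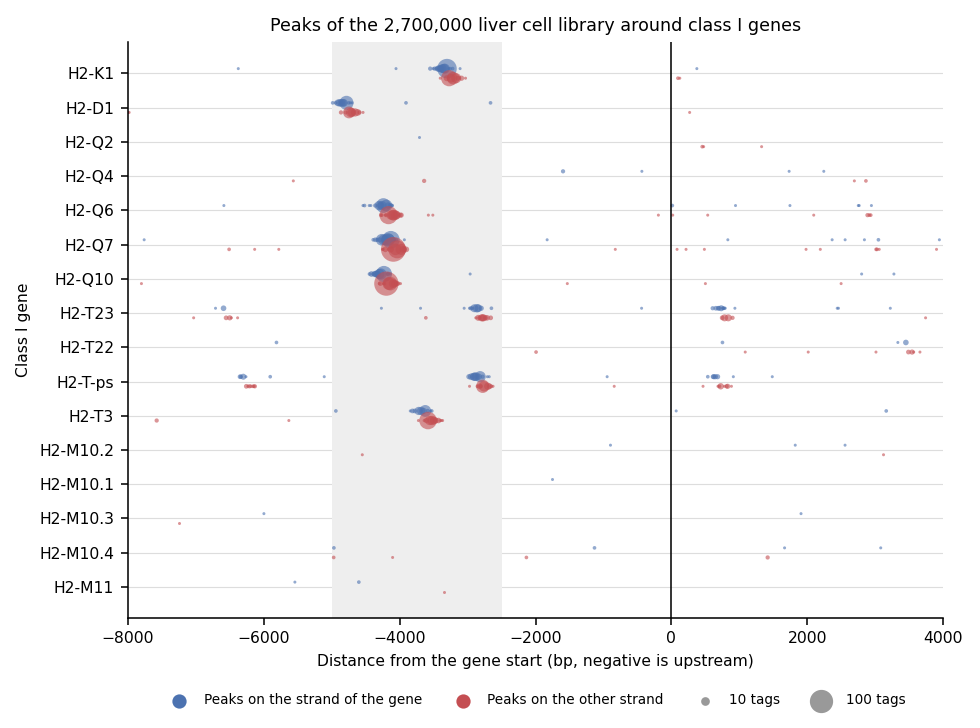
Peaks of the library of 2,700,000 liver cells around the starts of the 16 class I genes with an H2 symbol and known strand. Distance from the start in bp is on the x axis, with strand by color and tags by the area of the point. The shaded range is 2500 to 5000 bp upstream, where 8 genes have a cluster of peaks on both strands, while H2-Q2, H2-Q4, H2-T22 and the H2-M genes do not.

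Most tags inside class II genes lay in H2-DMa, whose product helps to load peptide on class II molecules, with 506 of 735 in the library of 2,700,000 cells. The site inside H2-DMa, at chr17:34135271-34135471, held 43 tags in brain, 55 in lung, 18 in the kidney and 6 in the liver, and 333 in the library of 2,700,000 cells. It had the highest brain count of all 111 sites. A site 10729.5 bp from H2-DMb1, at chr17:34170858-34171058, had the most tags in its pair of all sites in the region, 248, and held 13 tags in brain, 20 in lung, 4 in the kidney and 0 in the liver. The site 4983.5 bp from the pseudogene H2-Ea, at chr17:34349528-34349728, held 20 and 14 tags in brain and lung, 0 in kidney and 0 in the organ library of liver, but 30 in the library of 270,000 liver cells. Other sites lay within 200 bp on both sides, so their windows share tags with it. The site in H2-Eb1, the beta chain of the E molecule, held 9, 5, 4 and 5 tags in brain, lung, kidney and liver. Of the 10 class II genes, 3 held a site inside and 9 held tags in the library of 2,700,000 cells, against 44 and 187 of all 233 genes of the region. They had a median of 1.60 tags per kb of gene against 1.56 over all genes of the region. H2-DMa held 26.1 tags per kb and H2-Aa, the alpha chain of the A molecule, 14.4, whereas H2-Eb2 held 0.691. The copies H2-DMb1 and H2-DMb2 held 0.994 and 1.44, which is uncertain for the reason given above.

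The genes of antigen processing lie within and beside the class II block. Tapbp, which encodes tapasin, held 31.5 tags per kb in the library of 2,700,000 cells, and Tap2, a subunit of the peptide transporter, held 15.2. Its partner Tap1 held 2.28, and the immunoproteasome subunits Psmb8 and Psmb9 held 1.84 and 0.943. The site with most tags near these genes lay 4644.5 bp from Psmb9 at chr17:34177285-34177485, and held 8 tags in lung, 0 in the other organs, 2 in the library of 270,000 cells and 248 in that of 2,700,000. A site 2979 bp from Tap2 held 13 tags in lung, 4 in liver and 0 in brain and kidney. Peaks near these genes were thus unevenly spread over the members and over the organs. A neighboring block of butyrophilin-like genes, relatives of T cell regulators, held 1 site among 6 genes, in Btnl1, with 2 tags in brain and 0 in the other organs.

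In the class III block, Ehmt2, a histone H3 lysine 9 methyltransferase, held a site called in every library at chr17:34912173-34912373. It held 18 tags in brain, 26 in lung, 12 in the kidney, 6 in liver, 6 and 251 in the libraries of 270,000 and 2,700,000 cells, and 2 in that of 27,000. Atf6b, a transcription factor of the unfolded protein response, held a site with 15, 4, 10 and 4 tags in the organs, and 345 in the library of 2,700,000 cells. Nfkbil1 held 13, 20, 3 and 5 tags at its site in the gene body, at chr17:35232105-35232305. These sites were called in all 4 organs. By contrast, the site in the complement gene C4a, annotated as a transcribed pseudogene, held 0 tags in all 4 organs, 3 in the library of 270,000 cells and 128 in that of 2,700,000. C4a and C4b are near-identical, as are the tenascin copies Tnxa and Tnxb, and the site in Tnxa held 11, 5, 6 and 4 tags. Cyp21a1 lies in the same duplicated stretch, and tags at all of these genes are uncertain. Among the TNF cluster genes, Tnf itself, which encodes the cytokine, held 0 tags in all 7 libraries, whereas the lymphotoxin gene Ltb held 35.0 tags per kb in the library of 2,700,000 cells. No site lay in or within 5 kb of the heat shock genes Hspa1a, Hspa1b and Hspa1l, of which the first pair are near-identical copies, or of the 6 genes of the Ly6 group, or of the 6 H2-M genes.

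The nuclear regulators, the largest group, had 5 sites inside 4 of their 13 genes, which span 118 kb. The antigen processing genes had 3 sites inside 2 of 5 genes over 39.9 kb, and all genes of the region 54 sites inside 44 of 233 genes over 1602 kb. Atf6b had 58.1 tags per kb in the library of 2,700,000 cells and Rxrb, a nuclear receptor partner, 37.3. Nelfe, a subunit of the negative elongation factor, had 14.7. Brd2, a reader of acetylated histones, had 2.04, Pou5f1 2.11, and Daxx 1.94. Zbtb12 had 0. The medians by group in the library of 2,700,000 cells were 7.24 tags per kb for the 6 T genes, 2.28 for antigen processing, 2.25 for complement, 2.11 for nuclear regulators, 1.88 for the 8 Q genes, 1.64 for the Ly6 genes, 1.60 for class II, 1.58 for the TNF cluster, 1.07 for the heat shock genes, 0.987 for the classical class I genes, 0.920 for the butyrophilin-like genes and 0.387 for the 6 H2-M genes. The 3 highest genes per kb were long noncoding RNAs, namely Gm41576 with 590 tags per kb, Gm32252 with 232 and Gm31082 with 198, which are 0.539, 1.551 and 1.77 kb long. All 3 lie among the class I genes. Gene intervals covered 55.8% of the region and took 58.7% of the region's tags in brain, 59.9% in lung, 56.4% in kidney, 59.8% in liver and 51.9% in the library of 2,700,000 cells.

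Sites of the region were found again in the other libraries as follows. Brain held a peak at 79 of 111 sites (71.2%, Wilson interval 62.1 to 78.8) against 62.8% of all sites. Lung held a peak at 67 (60.4%, 51.1 to 69.0) against 50.7%. Kidney did so at 63 (56.8%, 47.5 to 65.6) against 44.1%. These 3 organs lay above the background, which was inside the interval only in brain. Liver held a peak at 53 (47.7%, 38.7 to 57.0) against 27.9%. The library of 270,000 cells held a peak at 79 (71.2%, 62.1 to 78.8) against 53.5%, and that of 27,000 at 3 (2.70%, 0.923 to 7.65) against 2%. Moved by 5 kb, the same windows held a peak in 5, 1, 6 and 2 cases in brain, lung, kidney and liver. Liver, lung, kidney and the library of 270,000 cells had the background of all sites below the interval, by the widest margin in liver. Other sites within 5 kb of a gene, a background added later, were called in 65.8% of cases in brain and 53.7% in lung. The shares were 46.6% in the kidney, 29.2% in the liver and 55.2% with 270,000 cells. Against these sites the background lay inside the interval in lung as well as in brain.

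Region sites were stronger than others, with 53 of 111 in the upper of 3 equal classes of all sites by tags in the pair. Within that class, region sites were called in 83.0% of cases in brain, 77.4% in lung, 69.8% in the kidney and 64.2% in the liver, against 76.1%, 62.8%, 55.8% and 37.7% of all sites of that class. In the lower class, with 33 region sites, the shares were 51.5%, 48.5%, 39.4% and 27.3% against 50.7%, 39.8%, 33.9% and 19.7%. The middle class held 25 region sites, and there the share was lower in the region in lung, with 10 sites called against 49.8% of all sites, and in the library of 270,000 cells, 48.0% against 49.2%. Without peaks of 1 position the calls were 58.6% in brain, 36.0% in lung, 27.9% in the kidney and 35.1% in the liver, against 48.9%, 27.1%, 21.9% and 20.3%.

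**Figure D3:**
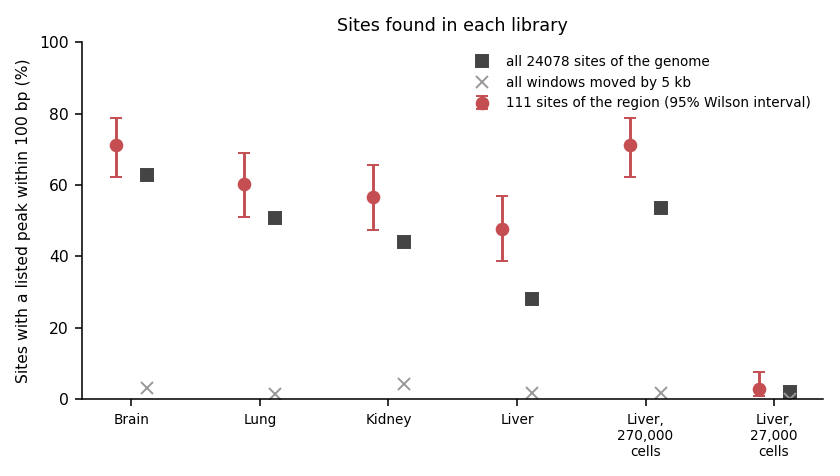
Percent of sites with a listed peak within 100 bp (y axis) in the 4 organ libraries and 2 liver titration libraries, for the 111 sites of the region (circles, bars are 95% Wilson intervals), for all 24,078 sites (squares) and for all windows moved by 5 kb (crosses). The circle lies above the square in each library, from 71.2% against 62.8% in brain to 2.70% against 2% in the library of 27,000 cells.

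All 4 organs held a peak at 30 of the 111 sites (27.0%, Wilson interval 19.6 to 36.0) against 13% of all sites, and 17 sites held none in any organ (15.3% against 21.7%). Sites in all 4 organs were found in each block, with 8 each in the class III and Pou5f1 to Gnl1 blocks, 5 in the D and Q block, 4 in the class II block, 2 each in the K and M blocks and 1 in the T block. The strongest of them by their lowest organ count lay 17421 bp from Gm4577 at chr17:35725692-35725892, with 29 tags in brain, 24 in lung, 17 in the kidney and 11 in the liver. The next by this count, with 6 tags each, were the H2-DMa and Ehmt2 sites given above and a site near A930015D03Rik. The last lay 668 bp from that gene and held 21, 14, 11 and 6 tags, and the site in the long noncoding RNA Gm41577, at chr17:35590893-35591093, held 14, 7, 7 and 5. The latter was the other site of the region, beside those of Ehmt2 and H2-Q10, called in the library of 27,000 cells. Liver held the fewest tags at each of these sites, and was also the organ library with the fewest tags at sites in the genome.

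**Figure D4:**
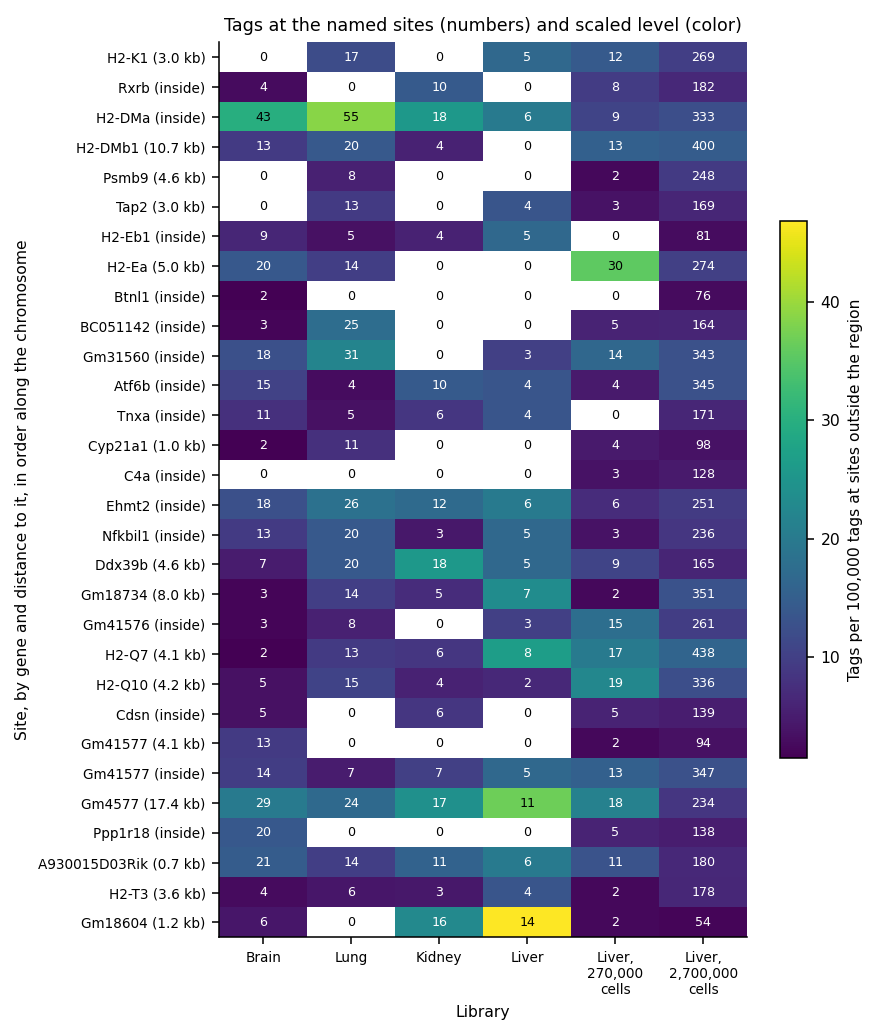
Tags within 100 bp of the 30 named sites (numbers) in 6 libraries, with the color giving tags per 100,000 tags at sites outside the region, and white for no listed peak. Rows follow the chromosome, and each is named by a gene with the distance to its annotated interval. The H2-DMa site is high in brain and lung, with 43 and 55 tags, whereas the C4a site has none in the 4 organs.

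Not all of the sites with most tags in their peak pair in the library of 2,700,000 cells were found in every organ. The site in Gm31560, at chr17:34555577-34555777, had 230 tags in its pair and held 18 tags in brain, 31 in lung, 0 in the kidney and 3 in the liver. The site in Gm41576, at chr17:35389893-35390093, had 172 and held 3, 8, 0 and 3. A site 7990.5 bp from Gm18734, at chr17:35295915-35296115, had 174 in its pair and was found in all 4, with 3, 14, 5 and 7 tags. Of the 10 sites with most tags in the pair, those near H2-DMb1 and H2-Ea and in Gm31560 and Gm41576 were thus missing from at least 1 organ.

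Sites of at least 10 tags over the organs were compared between organs by tags per 100,000 tags at sites outside the region, and called higher in an organ at 3 times the mean of the other 3 organs. Of 76 region sites, 8 were higher in brain (10.5% against 15.8% of all sites), 12 in lung (15.8% against 21%), 9 in the kidney (11.8% against 12.3%) and 9 in the liver (11.8% against 7.81%). These shares of the region lay near the background or below it in brain, lung and kidney. In liver the share was above it, on 9 sites. Scaled by all listed tags, the numbers were 16, 40, 1 and 1 in brain, lung, kidney and liver. The number for liver thus depends on the scaling. The 9 liver sites held only 3 to 14 liver tags each, where the smallest listed peaks hold 2. The windows of those 4221.5 and 4095.5 bp from H2-Q7 overlap. In brain, the site in Ppp1r18, which encodes a phosphatase regulator, at chr17:35873876-35874076, held 20 tags, with 0 in the other organs, and a site 4116 bp from Gm41577 held 13, also with 0 elsewhere. In lung, the site in BC051142 held 25 tags against 3 in brain and 0 in kidney and liver, and a site 995 bp from Cyp21a1, a steroid 21-hydroxylase, held 11 against 2, 0 and 0. No lung peak at these sites was spread over more than 1 position. In kidney, the site in Rxrb held 10 tags against 4 in brain and 0 in lung and liver, and that in Cdsn, an adhesion protein of the epidermis, held 6 against 5, 0 and 0. In liver, a site 1239 bp from Gm18604 held 14 tags against 6 in brain, 0 in lung and 16 in kidney. That site also held 2 tags in the library of 270,000 liver cells and 54 in that of 2,700,000. These sites were named for having the highest ratios, so their values are a description. The counts are small, and the site in A930015D03Rik with 57 tags in lung, the highest organ count of the region, was named after its values were seen, with 20 tags in brain, 8 in the kidney and 2 in the liver.

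Peak pairs of the organs without any peak of the library of 2,700,000 cells within 100 bp were few in the region. Brain had 45 pairs of which 1 was without (5.83% of all pairs in the genome), lung 29 of which 0 (2.02%), kidney 21 of which 1 (30.8%) and liver 7 of which 0 (20.5%). In the library of 270,000 cells, 1 of 20 pairs was without (3.88%). The brain pair lay near Ier3, an immediate early gene, with 7 tags, and the kidney pair near Btnl1 with 10. Outside these, every organ pair of the region lay by a peak of the library of 2,700,000 cells. That library listed 1364 peaks per Mb in the region against 517 in the rest of the genome, dense bins left out. This count is thus looser in the region than over the genome. More pairs lacked a listed site, with 8 of 45 in brain (17.8% against 26.4% of all pairs). In lung 5 of 29 did (17.2% against 23.4%) and in kidney 4 of 21 (19.0% against 50.7%). In liver 0 of 7 did (against 40.6%), and with 270,000 cells 2 of 20 (10% against 13.4%).

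Around the region's sites, the median forward peak lay upstream and the median reverse peak downstream of the center in each library listed here. Forward peaks also lay at and beyond the center. In lung the commonest forward position was 0 bp and the commonest reverse position 25 bp, against -25 and 25 bp at all sites. The median distance between the strands was 44.5 bp in brain, 40 in lung, 61.5 in kidney, 55 in liver, 57.5 in the library of 270,000 cells and 46 in that of 2,700,000, against 41, 42.5, 42.5, 45.5, 56.5 and 61 at all sites. These rest on 38 to 106 peaks per strand in the region for the organ libraries. In the library of 2,700,000 cells the pairs that define the sites have this order, and lie 10 to 80 bp apart, by definition. Within the pairs that define the sites, the median distance was 40 bp against 42 bp for all sites, and 66.7% against 61.3% lay 30 to 50 bp apart.

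**Figure D5:**
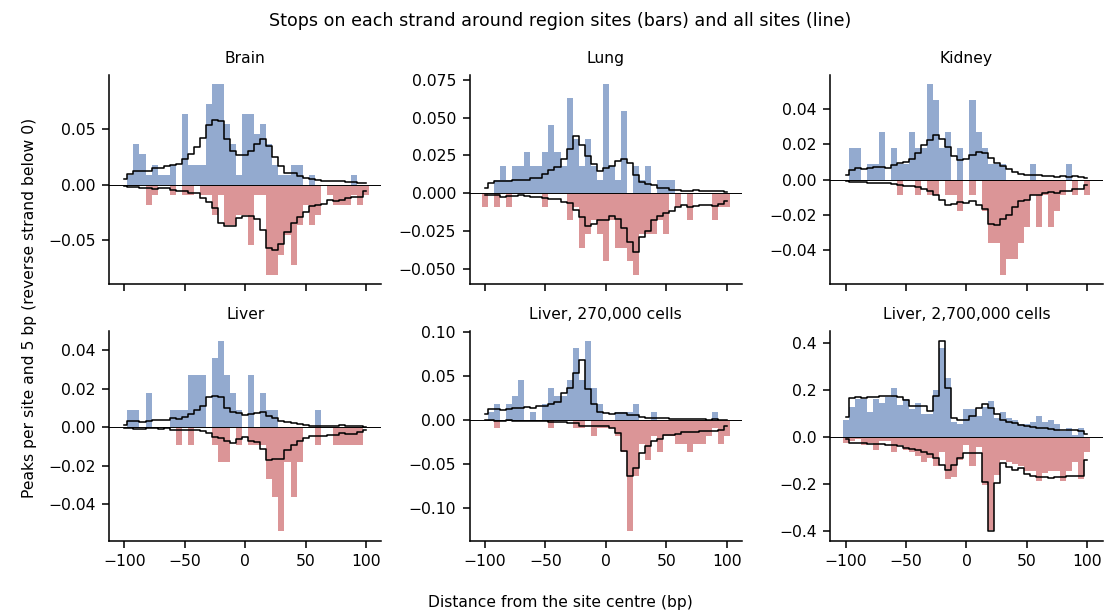
Number of peaks per site in 5 bp bins (y axis) plotted by position in bp around the site center, with the forward strand above 0 and the reverse strand below, for the region (bars) and for all sites (line) in 6 libraries. The median forward peak stands upstream and the median reverse peak downstream, 46 bp apart in the library of 2,700,000 cells. In that library the pairs that define the sites have this order by definition.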

How the data were processed

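CTCF ChIP-exo 5.0 was measured in 7 mouse libraries, 1 per condition. The authors sequenced 2 × 40 bp reads and discarded duplicates identical in both reads as well as alignments that were not unique. The submitters' processing notes name BWA 0.7.9a, bcl2fastq 2.16 and mm10. The authors deposited, for each 21 bp peak, a raw count of tags on 1 strand and the standard deviation of tag positions in bp. The lowest count was 2. The region, lists and members were chosen with earlier results of these data known, and the upstream range of the class I genes after seeing the peaks.

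Tags were summed by peak center. Sites were peak pairs of the library of 2,700,000 cells outside 23 dense bins of 10 kb that held at least 20 peaks in each of 6 libraries, none of them in the region. The CTCF core was searched as 12 letters, 7 of them fixed. Organ levels were tags per 100,000 tags at sites outside the region. Gene positions came from RefSeq GRCm38.p6, without exons. Strand was known from the promoter table for 143 of the region's 233 genes. Named sites were, for each gene group, the site in or within 5 kb of it with most tags in the pair. Also named were the 10 sites with most tags in the pair, 10 sites in all 4 organs with the highest lowest count, and 2 sites per organ with the highest ratio. The alternatives were peaks of at least 5 tags, peaks of 1 position removed, dense bins removed, windows of 50 bp, sites of at least 50 tags, scaling by all listed tags, distances weighted by tags, and genes with 1 kb on each side. The excess per Mb under such settings, a background of sites within 5 kb of a gene, and the wider upstream range and weaker pairs for class I, were added after seeing the data. Site calling was tested on simulated data. Tools were scipy 1.17.1, pandas 2.3.3, numpy 2.4.6 and matplotlib 3.10.9 under Python 3.11.15.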

Additional observations from a re-analysis of the deposited data

How the results depend on the processing

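No paired analysis was possible because each condition had 1 library, and for the same reason no replicate could be left out. Kept to peaks of at least 5 tags, the region's share of tags was 0.174% in brain, 0.107% in the kidney and 0% in the liver, and 0.464%, 0.132% and 0% in the titration from the most to the fewest cells. Sites found became 34.2% in brain, 46.8% in lung, 18.9% in kidney, 0% in liver, 27.0% with 270,000 cells and 0% with 27,000. In the same order, 28.0%, 37.9%, 16.2%, 1.30%, 16.6% and 0.478% of all sites were found. In all 4 organs 0 sites held such a peak, against 0.407% of all sites. The highest liver peak in the region held 4 tags, and so did that of 27,000 cells.

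Without peaks of 1 position the shares of tags were 0.260% in brain, 0.398% in lung, 0.0896% in the kidney and 0.110% in the liver, and 0.406%, 0.183% and 0.0144% in the titration. Sites found became 58.6%, 36.0%, 27.9% and 35.1% in the organs, 60.4% with 270,000 cells and 0.901% with 27,000. The shares of all sites were 48.9%, 27.1%, 21.9% and 20.3% in the organs, 42.4% with 270,000 cells and 0.523% with 27,000. In all 4 organs 11 of the 111 sites were found, against 5.02% of all sites. Sites higher in kidney fell to 3 and in liver to 5. Tags within genes became 52.7% in brain, 51.3% in lung, 42.9% in kidney, 52.8% in liver, and 51.1%, 45.3% and 100% in the titration. The cause was not tested.

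Without dense bins the shares of tags were 0.217% in brain, 0.321% in lung, 0.151% in the kidney and 0.167% in the liver, and 0.408%, 0.264% and 0.156% in the titration, since fewer tags were left in each library. With sites of at least 50 tags, the sites found were 82.3%, 75.8%, 67.7% and 62.9% in the organs and 85.5% with 270,000 cells. Of all such sites, 73.6%, 60.8%, 53.5% and 35.7% were found in the organs and 71.7% with 270,000 cells. Windows of 50 bp on each side gave 50.5% in lung, 37.8% in liver and 59.5% with 270,000 cells, against 44.4%, 22.8% and 45.4% of all sites. With these windows 18 of the 111 sites were found in all 4 organs, against 8.72% of all sites.

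Scaled by all listed tags, 16 sites were higher in brain, 40 in lung, 1 in the kidney and 1 in the liver, so the number of sites assigned to an organ depends on the scaling. Genes with 1 kb on each side took 66.8% of the region's tags in brain, 66.9% in lung, 68.9% in kidney, 68.3% in liver, 58.5% with 2,700,000 cells and 59.4% with 270,000. The excess of tags per Mb over the rest of the genome, an alternative chosen after seeing the data, was 2.41-fold in brain, 5.39-fold with 2,700,000 cells, 2.75-fold with 270,000 and 0 in liver and with 27,000 cells when peaks of at least 5 tags were required. Without peaks of 1 position it was 4.27-, 5.53-, 2.55- and 2.62-fold in the organs, 4.50-fold with 2,700,000 cells and 4.52-fold with 270,000. With the dense bins kept it was 1.92-, 2.99-, 1.31- and 1.23-fold in the organs, and 3.67-, 1.97- and 0.969-fold in the titration.

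Of 107 alternatives over 37 results, 27 moved by less than counting error or under 1.5 times for counts, 74 moved further and 6 changed direction. The latter were the excess in liver and with 27,000 cells with peaks of at least 5 tags, the excess with 27,000 cells with the dense bins kept, and, with peaks of at least 5 tags, the sites found in liver (0% against 1.30% of all sites), with 27,000 cells (0% against 0.478%) and in all 4 organs (0 sites against 0.407% of all sites). The 27 that moved little include, for each library scored, the background of sites within 5 kb of a gene. That setting cannot change the region's own share of sites found. The share of sites found was above that of the background in 28 of 30 alternatives. Liver had 171 tags at the region's sites and lung 935.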

Other observations

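The library of 27,000 cells listed 15 peaks in the region, with 35 tags. The highest held 4 tags each, 1 in Neu1, a lysosomal sialidase, and 1 in Cdsn, and all tags of each stopped at 1 position. Neither lay at a site. The remaining peaks off the sites held 2 tags each and lay in or near Tnxa, Lsm2, Vars2, Flot1, Prr3 and others.

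Peaks of the library of 2,700,000 cells lay a median of 40 bp apart in the region, against 362 bp in the genome, with 18 gaps over 10 kb. After the stretch at H2-M10.5-ps1, the longest gaps were 14870 bp over the ends of Dhx16 and 2310061I04Rik, 14137 bp at BC051142, 13964 bp at A930015D03Rik and H2-T24, and 13778 bp that overlap no gene.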
